A study of Homo sapiens with 6 samples.

Results

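The clustered replication histone genes are the multicopy genes that supply the histones packed onto newly made DNA. They were taken from the deposited table by symbol, as every gene named H2AC, H2BC, H3C or H4C with a number, together with the linker genes H1-1 to H1-6. This gave 66 of the 60612 genes in the table, of which 55 lie on chromosome 6 and 11 on chromosome 1. By class there were 6 linker H1, 16 H2A, 17 H2B, 13 H3 and 14 H4 genes. A group mean of at least 1 FPKM (counts scaled to exonic length and library total) was reached by 19 of the 66, and 15 of them had at least 1 FPKM in each of the 6 libraries. The measurements come from A549, an established epithelial line derived from a lung adenocarcinoma. In one group, the cells received siRNA against GSE1 (siGSE1), and in the other a negative control siRNA, with 3 RNA-seq libraries each and RNA taken 48 hours after transfection. The control cells were therefore transfected too, and both groups share one line, one time point and unsorted culture. The siRNA sequences are not known here. The labels do not say whether replicates were separate cultures, so the variation behind the p-values is that between libraries and may be technical.

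Replication histone genes are transcribed mainly in S phase, when the cell copies its DNA. Their mRNAs normally end in a conserved stem-loop in place of a poly(A) tail. The stem-loop-binding protein SLBP and the U7 small nuclear ribonucleoprotein direct the cut that forms this end, and the mRNAs are degraded quickly when DNA synthesis stops. H2A, H2B, H3 and H4 form the nucleosome core and H1 binds the DNA that links nucleosomes. The TruSeq RNA kit used here is commonly run with selection of poly(A) RNA, but the sources used here do not record that step. A poly(A) selection would retain polyadenylated forms of these mRNAs and lose most stem-loop-ended forms, so the levels below describe the mRNA that entered these libraries.

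The stem-loop is shown first because it sets these genes apart from other mRNAs. Sequences were taken from the transcripts of GENCODE release 29 (GRCh38), in which 64 of the 66 genes were matched by identifier. The histone stem-loop, a 16-base inverted repeat searched on the transcript strand, occurred in the transcripts of 333 of 58676 genes (0.568%). Among the histone genes, 30 had transcript models that hold coding sequence alone and could show no stem-loop. Of the other 34, 28 contained it. Below, capitals mark the stem-loop and lower case the 5 bases on either side, for 3 genes that were higher in siGSE1 cells (H2BC5, H2BC6, H4C9) and 3 genes above 1 FPKM that did not pass the test (H2AC6, H3C10, H4C8).
H2BC5: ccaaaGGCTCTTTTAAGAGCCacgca
H2BC6: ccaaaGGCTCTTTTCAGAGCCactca
H4C9: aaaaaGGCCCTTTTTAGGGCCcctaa
H2AC6: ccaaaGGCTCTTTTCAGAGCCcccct
H3C10: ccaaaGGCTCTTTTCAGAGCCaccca
H4C8: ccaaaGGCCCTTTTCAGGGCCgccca
The stem-loops of H2BC6, H2AC6 and H3C10 were the same 16 bases, and the element was thus shared by called and uncalled genes. Of the 28 genes with a stem-loop, 20 had an annotated transcript that continues for more than 100 bases beyond it. In H2AC6 the longest of these ran on for 1128 bases and in H4C8 for 1655, whereas in H2BC5 39 bases followed. Such extended models were found for 8 of the 12 genes with more than a coding model that reached 1 FPKM, and for 12 of the 22 that did not. They were found for 2 of 4 such genes that were higher in siGSE1 cells, and for 10 of 11 that were tested and not called. Only a transcript that holds the stem-loop could count as extended. H2BC5 and H2BC11 did not count, and no stem-loop was found for H2BC11. Their deposited models run from 26158146 to 26171349 (871 exonic bases) and from 27125897 to 27132795 (1046 exonic bases). These shares therefore do not cover transcript ends that leave the stem-loop out.

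The bases before the annotated start are shown for the 6 genes that were higher in siGSE1 cells, since each of these genes moved the same way. The sequences are the 200 bases before the RefSeq start on GRCh38.p14, written 5′ to 3′ on the gene's strand. Capitals mark 3 motifs: the octamer ATTTGCAT, the pentamer CCAAT and the TATA box TATAAA. Each was searched on both strands, so a match on the other strand appears as the reverse complement.
H2BC12 (chr6:27146859-27147058, minus strand): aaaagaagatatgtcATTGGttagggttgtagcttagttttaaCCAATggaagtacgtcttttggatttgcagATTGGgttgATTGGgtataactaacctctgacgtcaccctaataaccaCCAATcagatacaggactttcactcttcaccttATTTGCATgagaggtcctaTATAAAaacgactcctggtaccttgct
H2BC11 (chr6:27132796-27132995, minus strand): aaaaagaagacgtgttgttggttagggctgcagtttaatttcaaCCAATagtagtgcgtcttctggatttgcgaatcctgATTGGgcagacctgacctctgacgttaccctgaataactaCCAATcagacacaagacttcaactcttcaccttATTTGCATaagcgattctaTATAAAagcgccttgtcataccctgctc
H2BC5 (chr6:26157921-26158120, plus strand): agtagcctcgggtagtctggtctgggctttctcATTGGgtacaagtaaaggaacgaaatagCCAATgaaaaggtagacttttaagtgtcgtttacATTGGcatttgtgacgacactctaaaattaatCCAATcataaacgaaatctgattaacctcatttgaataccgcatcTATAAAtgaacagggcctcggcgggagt
H2BC6 (chr6:26183561-26183760, plus strand): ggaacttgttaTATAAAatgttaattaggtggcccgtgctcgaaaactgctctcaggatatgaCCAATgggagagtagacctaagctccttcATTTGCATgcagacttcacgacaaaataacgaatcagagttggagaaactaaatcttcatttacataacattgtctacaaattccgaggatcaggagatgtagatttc
H4C9 (chr6:27139082-27139281, plus strand): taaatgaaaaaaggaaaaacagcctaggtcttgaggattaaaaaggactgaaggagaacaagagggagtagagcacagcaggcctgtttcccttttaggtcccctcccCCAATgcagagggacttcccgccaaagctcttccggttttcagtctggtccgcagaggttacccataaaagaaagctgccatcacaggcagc
H1-2 (chr6:26056471-26056670, minus strand): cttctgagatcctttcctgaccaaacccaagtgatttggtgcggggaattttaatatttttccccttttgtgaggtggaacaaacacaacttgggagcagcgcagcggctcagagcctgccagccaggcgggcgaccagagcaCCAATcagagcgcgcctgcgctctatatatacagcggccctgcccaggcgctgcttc
The octamer lay 46 bases before the start of H2BC12, 47 before that of H2BC11 and 108 before that of H2BC6, counted to its first base. The letters of the octamer were not found in the 200 bases shown for H2BC5, H4C9 and H1-2. The H2BC11 and H2BC12 sequences were identical in 78.8% of aligned positions, against 46.1% to 55.2% for the other pairs among the 6. In the RefSeq window from 250 bases before to 50 after the start, available for 61 of the 66 genes, the octamer was found in 14 of 17 H2B genes and 11 of 15 H2A genes. It was found in 1 of 11 H3 genes, 0 of 12 H4 genes and 0 of 6 H1 genes, and in 2.19% of 27305 genes with such a window. That H3 gene, H3C4, has the same RefSeq window as H2AC7. CCAAT was found in 52 of the 61, with 3 of the 12 H4 genes among them, and in 39.7% of all genes. TATAAA was found in 42 of the 61 and in 14.0% of all genes. Matches on opposite strands can overlap, as with the TATA box in H2AC11. These matches describe the letters of the windows and not sites in use.

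The libraries held between 14475992 and 20755506 counts. GSE1 itself was checked first. It (ENSG00000131149, chromosome 16, 85169525 to 85676204, plus strand, hg38) had 7.37, 8.06 and 7.92 FPKM in control replicates 1 to 3 and 3.84, 4.06 and 3.73 in siGSE1 replicates 1 to 3. The groups did not overlap, and the siGSE1 mean was 49.8% of the control mean, with log2 fold change -1.03 ± 0.06 SE (edgeR adjusted p = 2.14e-08). The exact two-sided permutation p was 0.1, the smallest that 3 libraries against 3 allow. Control replicate 2 stood apart, with a chi-square per degree of freedom of 10.1 and 8.97 against the other controls, where the other pairs within a group had 2.49 to 4.60. It was the highest of the controls for 12 of the 20 histone genes tested. Of the epithelial markers, KRT8 averaged 754 FPKM in control and 640 in siGSE1 cells and KRT18 902 and 773, while the lung markers NKX2-1, SFTPA1, SFTPB and SFTPC were near 0. In all, 7 of the 13 epithelial markers stayed under 1 FPKM in both groups. Of 8 epithelial markers tested, 3 (CLDN4, KRT8 and KRT18) fell and 0 rose. CLDN4 passed in 13 of 13 alternative fits, KRT8 in 7 and KRT18 in 6. KRT8 and KRT18 were lost with TPM scaling, limma, a robust prior and any siGSE1 library left out, and KRT18 also without control replicate 2, with adjusted p up to 0.130 for KRT8 and 0.184 for KRT18. Most markers of other cell types stayed under 1 FPKM in both groups, 13 of 14 for leukocytes, 9 of 11 for fibroblasts and 9 of 10 for endothelium, with PTPRC at 2 counts over all libraries. The summed markers ranged over 4.00 to 6.21 FPKM in control and 3.88 to 6.61 in siGSE1 libraries for leukocytes, 4.05 to 5.12 and 6.19 to 7.34 for fibroblasts, and 0.810 to 1.09 and 1.44 to 2.28 for endothelium. The fibroblast marker ACTA2 and the endothelial marker ESAM rose, and the part of such markers in the histone results was not tested. In bulk RNA, fewer cells of a type, such as cells in S phase, and less RNA per cell cannot be told apart.

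A few genes held most of the histone counts. H2BC12, H2AC6, H1-2 and H2BC5 together made up 67.3% to 72.1% of the counts of the 66 genes in each library, and H2BC12 alone 31.2% to 36.7%. At the other end, 9 genes had no count in any library and 31 had between 1 and 20 counts over all 6. A count of 0 in a library allows up to 3 counts, which for a transcript of 500 bases comes to 0.289 to 0.414 FPKM depending on the library. This limit covers counting error alone. By class, 1 of 6 H1, 5 of 16 H2A, 7 of 17 H2B, 4 of 13 H3 and 2 of 14 H4 genes reached 1 FPKM. On chromosome 6, 17 of 55 reached it, and on chromosome 1, 2 of 11.

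**Figure D1:**
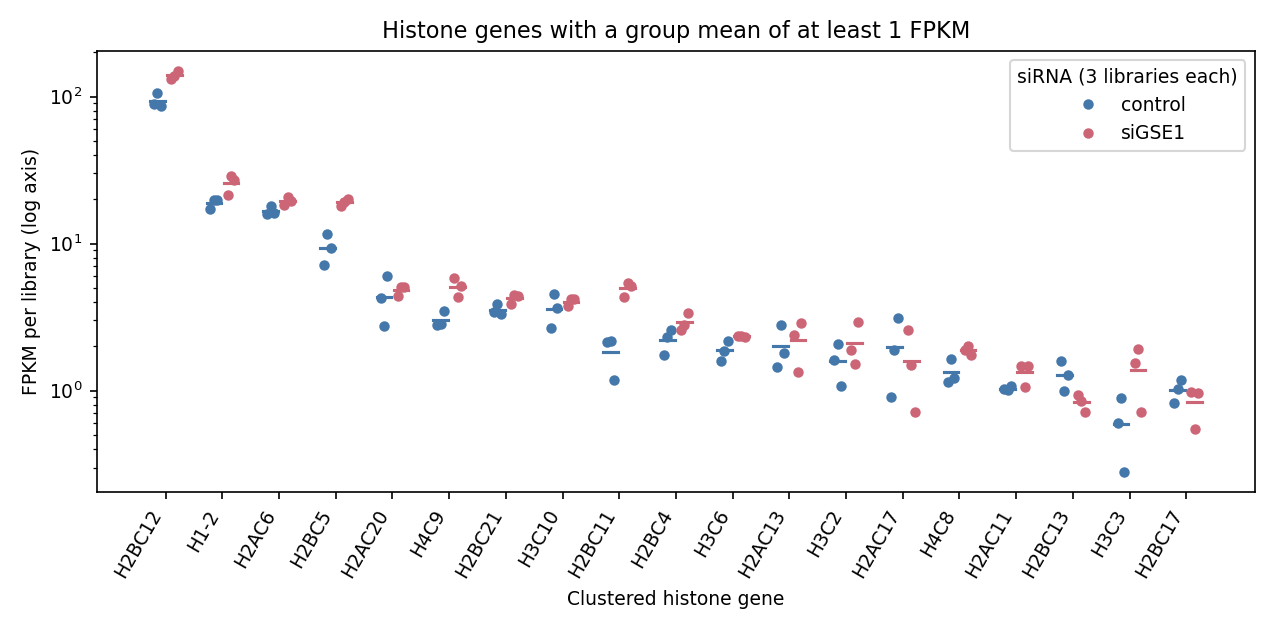
FPKM (log axis) in each of 3 control and 3 siGSE1 libraries for the 19 histone genes with a group mean of at least 1 FPKM; points are libraries and short lines are group means. H2BC12 stands highest, at 86.7 to 106 FPKM in control and 132 to 149.6 in siGSE1 libraries, and most other genes lie under 10.

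The question the design poses is which genes change when GSE1 is reduced. Of the 66 histone genes, 20 had enough counts to be tested and 46 did not. Of these 20, 6 were higher in siGSE1 cells (30%), 0 were lower and 14 did not pass the threshold of an adjusted p of 0.05 by edgeR. Among all 15937 genes tested, 19.9% changed, 10.9% being higher and 9.02% lower. At an unadjusted p under 0.05, edgeR gave 8 histone genes higher and 0 lower. The log2 fold change was above 0 for 19 of the 20 (50.6% of all genes tested) and its median was 0.39, against 0.00 over all genes tested. For 10 of the 20 the FPKM of the groups did not overlap, as for 36.1% of all genes tested. One of the 20, H2BC6, passed the filter on low counts through the siGSE1 group, in which all 3 libraries were over the limit against 1 control library, so these shares describe the tested genes and not all 66. The 6 genes called higher were H2BC12, H2BC5, H2BC11 and H2BC6 of the H2B class, H4C9 and H1-2, all on chromosome 6. That chromosome holds 55 of the 66 histone genes, and on chromosome 1 only H2AC20, H2BC18 and H2BC21 were tested.

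**Figure D2:**
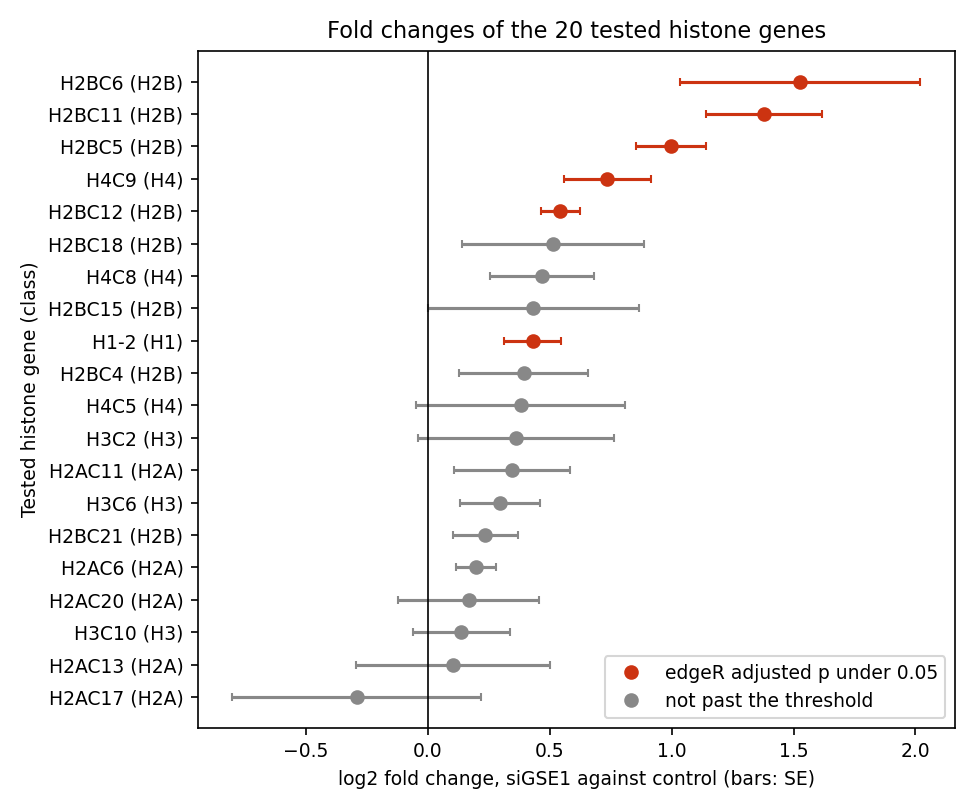
Log2 fold change of each of the 20 tested histone genes, siGSE1 against control, with its standard error as a bar; red points passed an edgeR adjusted p of 0.05. The 6 red points run from 0.43 for H1-2 to 1.53 for H2BC6, and H2AC17 at -0.29 is the one point left of 0.

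H2B genes were the class with the most calls, 4 of the 8 tested. H2BC12 (ENSG00000197903, chromosome 6, 27146361 to 27146855, minus strand, exonic length 495 bases), which encodes a core H2B protein, had 89.3, 106 and 86.7 FPKM in control and 132, 137 and 149.6 in siGSE1 libraries. Each siGSE1 value lay above each control value. The mean went from 93.9 ± 10.4 to 139.5 ± 9.22 FPKM (± SD over 3 libraries), with log2 fold change 0.54 ± 0.08 SE (edgeR adjusted p = 1.56e-04). H2BC5 (ENSG00000158373, chromosome 6, 26158146 to 26171349, plus strand, 871 bases) encodes another H2B copy. It had 7.16, 11.7 and 9.36 FPKM in control and 17.9, 19.3 and 20.1 in siGSE1 libraries, with no overlap. Its mean was 9.40 ± 2.26 against 19.1 ± 1.10 FPKM (± SD over 3 libraries), and edgeR's fitted fold, scaled by TMM, was 2.00, with log2 fold change 1.00 ± 0.14 SE (edgeR adjusted p = 1.57e-04).

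H2BC11 (ENSG00000124635, chromosome 6, 27125897 to 27132795, minus strand, 1046 bases) is an H2B copy near H2BC12. It had 2.14, 2.16 and 1.19 FPKM in control and 4.31, 5.39 and 5.18 in siGSE1 libraries. Control replicate 3, the library with the fewest total counts, was the lowest with 18 counts, and the groups did not overlap. The mean went from 1.83 ± 0.55 to 4.96 ± 0.57 FPKM (± SD over 3 libraries), and edgeR's fitted fold, scaled by TMM, was 2.60, with log2 fold change 1.38 ± 0.24 SE (edgeR adjusted p = 6.99e-04). H2BC6 (ENSG00000274290, chromosome 6, 26172059 to 26184655, plus strand, 2585 bases) was a low gene, with 6, 11 and 2 counts in control and 12, 21 and 24 in siGSE1 libraries. The largest control count, 11, was next to the smallest siGSE1 count, 12, and the groups did not overlap. In FPKM it had 0.11, 0.21 and 0.05 against 0.26, 0.42 and 0.47, and its log2 fold change was 1.53 ± 0.49 SE (edgeR adjusted p = 0.0385). That call for H2BC6 was lost when any library but control replicate 2 was left out, with an edgeR adjusted p of 0.110 without control replicate 1, 0.120 without control replicate 3, and 0.0513, 0.125 and 0.156 without siGSE1 replicates 1, 2 and 3. DESeq2 gave it no adjusted p.

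The other H2B genes did not pass. H2BC21, on chromosome 1, had 3.42, 3.89 and 3.34 FPKM in control and 3.88, 4.50 and 4.39 in siGSE1 libraries, with log2 fold change 0.24 ± 0.13 SE (edgeR adjusted p = 0.241). H2BC4 had 1.75, 2.31 and 2.57 against 2.60, 2.79 and 3.37 FPKM, with log2 fold change 0.39 ± 0.27 SE (edgeR adjusted p = 0.337). The H2BC4 groups did not overlap, and those of H2BC21 overlapped by their closest values, 3.89 and 3.88 FPKM. H2BC13 and H2BC17 reached 1 FPKM and had too few counts to be tested. H2BC13 had 1.60, 0.99 and 1.27 FPKM in control and 0.94, 0.85 and 0.72 in siGSE1 libraries. Each siGSE1 value of H2BC13 lay below each control value. With no filter on low counts its log2 fold change was -0.64 (edgeR adjusted p = 0.611). H2BC17 had 0.83, 1.03 and 1.18 against 0.98, 0.55 and 0.97 FPKM, and its groups overlapped. H2BC15 and H2BC18 were tested at under 1 FPKM and not called.

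The linker class had a single tested member. H1-2 (ENSG00000187837, chromosome 6, 26055740 to 26056470, minus strand, 731 bases), a linker histone, had 17.1, 19.7 and 19.7 FPKM in control and 21.3, 28.7 and 27.1 in siGSE1 libraries. The groups did not overlap, and siGSE1 replicate 1 lay nearer to the controls than to the other siGSE1 libraries. Its mean rose from 18.8 ± 1.48 to 25.7 ± 3.91 FPKM (± SD over 3 libraries), with log2 fold change 0.43 ± 0.12 SE (edgeR adjusted p = 0.0159). The call for H1-2 was lost without control replicate 1 (edgeR adjusted p = 0.0664), without siGSE1 replicate 2 (0.10) and without siGSE1 replicate 3 (0.0839). The other 5 linker genes were not tested, and 2 of them had no count in any library.

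Of the H2A genes, 5 were tested and 0 were called. H2AC6, the most abundant of them, had 15.8, 18.1 and 16.2 FPKM in control and 18.3, 20.8 and 19.3 in siGSE1 libraries. No siGSE1 value overlapped the controls, but the log2 fold change of 0.20 did not pass (SE 0.08, edgeR adjusted p = 0.0998). Without control replicate 2 it passed, with an edgeR adjusted p of 0.0270, and with FPKM scaled to one sum per library (TPM) it passed with 0.0338. H2AC20, on chromosome 1, had 4.24, 2.73 and 6.01 FPKM against 4.39, 5.03 and 5.08, with log2 fold change 0.17 ± 0.29 SE (edgeR adjusted p = 0.743). All siGSE1 values of H2AC20 lay within the range of its controls. H2AC11 had 1.02, 1.01 and 1.07 FPKM in control and 1.47, 1.06 and 1.47 in siGSE1 libraries, with log2 fold change 0.35 ± 0.24 SE (edgeR adjusted p = 0.346). H2AC13 had 1.45, 2.78 and 1.79 against 2.38, 1.34 and 2.90 FPKM, with log2 fold change 0.10 (edgeR adjusted p = 0.894). H2AC17 had 0.90, 1.88 and 3.12 against 2.58, 1.49 and 0.72 FPKM, with log2 fold change -0.29 (edgeR adjusted p = 0.745). In H2AC11, H2AC13 and H2AC17 the groups overlapped, and the controls of H2AC17 spread more widely than the difference between the groups. Leaving out a library turned the sign of the log2 fold change for H2AC13, H2AC17 and H2AC20.

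Of the H3 genes, 3 were tested and 0 were called. H3C10 had 2.68, 4.52 and 3.63 FPKM in control and 3.74, 4.18 and 4.18 in siGSE1 libraries, with log2 fold change 0.14 ± 0.20 SE (edgeR adjusted p = 0.686) whose sign also turned when a library was left out. H3C6 had 1.60, 1.87 and 2.19 against 2.36, 2.34 and 2.31 FPKM, with log2 fold change 0.29 ± 0.16 SE (edgeR adjusted p = 0.235). H3C2 had 1.62, 2.07 and 1.08 against 1.90, 1.52 and 2.95 FPKM, with log2 fold change 0.36 ± 0.40 SE (edgeR adjusted p = 0.582). The groups of H3C6 did not overlap, and those of H3C10 and H3C2 did. H3C3 reached 1 FPKM in the siGSE1 mean and was not tested, with 0.60, 0.89 and 0.28 FPKM in control and 1.53, 1.92 and 0.72 in siGSE1 libraries. Its groups overlapped, and with no filter its log2 fold change was 1.14 (edgeR adjusted p = 0.303).

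Of the H4 genes, 3 were tested and 1 was called. H4C9 (ENSG00000276180, chromosome 6, 27138588 to 27139881, plus strand, 1294 bases), an H4 copy, had 2.79, 2.83 and 3.47 FPKM in control and 5.82, 4.32 and 5.16 in siGSE1 libraries, with no overlap. Its mean went from 3.03 ± 0.38 to 5.10 ± 0.75 FPKM (± SD over 3 libraries), and edgeR's fitted fold was 1.67, with log2 fold change 0.74 ± 0.18 SE (edgeR adjusted p = 0.00850). Without siGSE1 replicate 1, its highest library, H4C9 had an edgeR adjusted p of 0.0537. H4C8 had 1.15, 1.63 and 1.21 against 1.90, 2.01 and 1.74 FPKM, which did not overlap, and its log2 fold change of 0.47 did not pass (SE 0.21, edgeR adjusted p = 0.138). H4C5 was tested at under 1 FPKM and not called. Of the 6 called genes, 3 (H2BC11, H4C9 and H2BC12) lie on chromosome 6 between 27125897 and 27146855. H2AC11, at 27133042 to 27135291 in the same stretch, was tested and not called.

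Summed over all 66 genes, the histone share of each library was 126.5, 152 and 137 CPM (counts scaled to library total) in control replicates 1 to 3 and 182, 195 and 202 in siGSE1 replicates 1 to 3. The exact (Clopper-Pearson) 95% interval, which covers counting error alone, was widest for control replicate 3 relative to its value, from 131 to 143.5. Each siGSE1 library lay above each control library, with means of 138.7 ± 13 and 193 ± 9.93 CPM (± SD, n = 3 each). The ratio of the means was 1.39, and 1.46 without control replicate 2. Without H2BC12 it was 1.35, so the largest gene did not make up the whole difference. By class the ratio was 1.53 for H2B, 1.49 for H4, 1.38 for H1, 1.19 for H3 and 1.16 for H2A, and for each class the siGSE1 libraries lay above the controls. The 95% intervals of the closest control and siGSE1 libraries overlapped for H1, H2A, H3 and H4. For H3 these were control replicate 2 (13.1 CPM, 11.5 to 14.7) and siGSE1 replicate 1 (13.4 CPM, 11.8 to 15.2). Most H1 counts were those of H1-2, and most H2A counts those of H2AC6. H2B went from 70.0 ± 7.80 to 107 ± 7.34 CPM (± SD, n = 3 each), the largest step of the 5 classes. These sums are given as a description with no test. The share of genes of the mitochondrial genome also differed, at 7.38% to 7.48% of counts in control and 6.70% to 6.95% in siGSE1 libraries. Over the counts outside that genome the ratio for the 66 genes was 1.38.

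**Figure D3:**
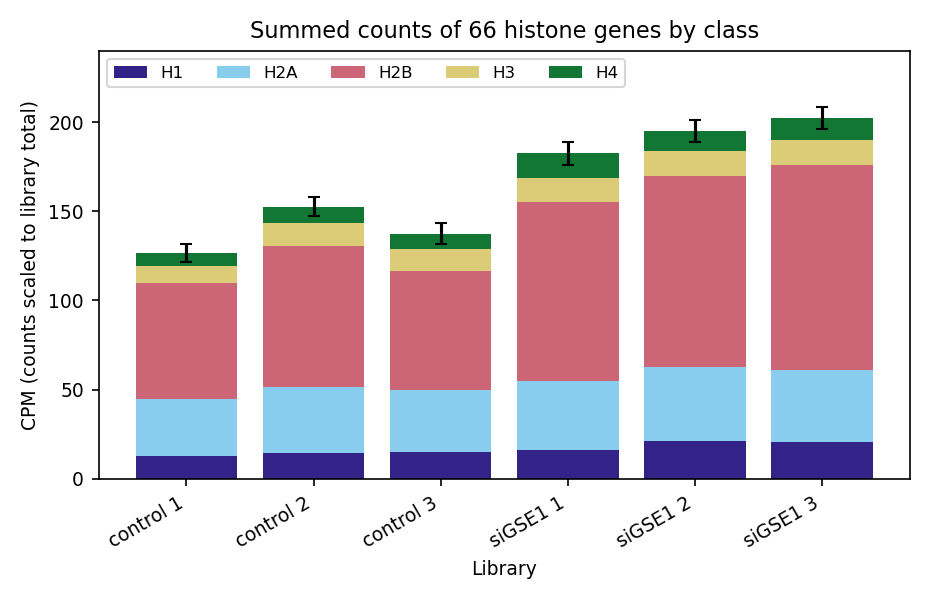
Summed CPM (counts scaled to library total) of the 66 histone genes in each library, stacked by class, with exact 95% intervals of the sum as black bars. The 3 siGSE1 libraries stand at 182 to 202 and the 3 control libraries at 126.5 to 152, and the H2B band takes the largest part of every bar.

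Many H2A and H2B genes lie back to back and share the bases between their starts. With a gap of at most 500 bases, 11 such pairs of the histone genes were found, and in 3 both genes were tested. H2BC17 stands in 2 of the pairs, since H3C12 and H2AC17 on its other side overlap. H2BC12 faces H2AC12 over 250 bases, and the pair held 6546 counts of H2BC12 over all libraries against 8 of H2AC12. In FPKM, which adjusts for length, this was 116.7 against 0.16. H2BC4 faces H2AC6 over 218 bases, and here the H2A gene was the higher, at 18.1 FPKM against 2.56 (means over 6 libraries). The 2 genes of a pair could thus differ widely in level, in either direction.

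H2BC11 faces H2AC11 over 246 bases, and the 200 bases printed for H2BC11 lie within that gap. The log2 ratio of H2BC11 to H2AC11 counts (0.5 added to each) was -0.03, 0.00 and -0.94 in control and 0.44, 1.24 and 0.71 in siGSE1 libraries. The groups did not overlap, and the mean difference was 1.12. For H2BC21 and H2AC20, which face each other over 265 bases, the mean difference of the same ratio was 0.04, and for H2BC4 and H2AC6 it was 0.18. These ratios are described with no test.

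**Figure D4:**
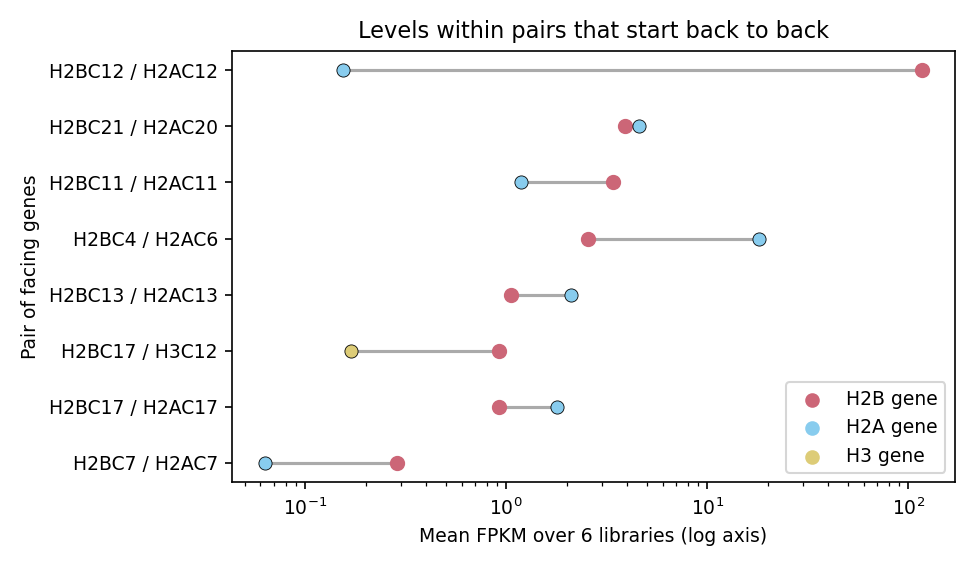
Mean FPKM over 6 libraries (log axis) for the 8 back-to-back pairs with more than 20 counts between them; each line joins the 2 genes of a pair. The longest line is that of H2BC12 and H2AC12, at 116.7 and 0.16 FPKM, and H2BC21 and H2AC20 lie closest, at 3.90 and 4.58.

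The length of the gene model went with whether a gene was measured. Exonic lengths in the deposited table ran from 386 to 5477 bases. Of the 29 genes over 600 bases, longer than a core histone coding region, 11 reached 1 FPKM, 15 were tested and 5 of those were called. All H1 genes fall in this group, at 724 to 797 bases, and H1-2 is among the 5 called. The coding sequence of H1-2 is itself 642 bases in GENCODE, so the split by length is also in part a split by class. Of the 37 genes of 600 bases or less, 8 reached 1 FPKM, 5 were tested and 1, H2BC12, was called. A longer model collects more counts at a given FPKM, and its exons may also lie outside the histone coding region. In the table H2BC6 starts at position 26172059, while the RefSeq sequence printed above ends at 26183760, just before the RefSeq start. For H4C9 too, the printed bases (27139082 to 27139281) lie inside the deposited gene model, which starts at 27138588.

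**Figure D5:**
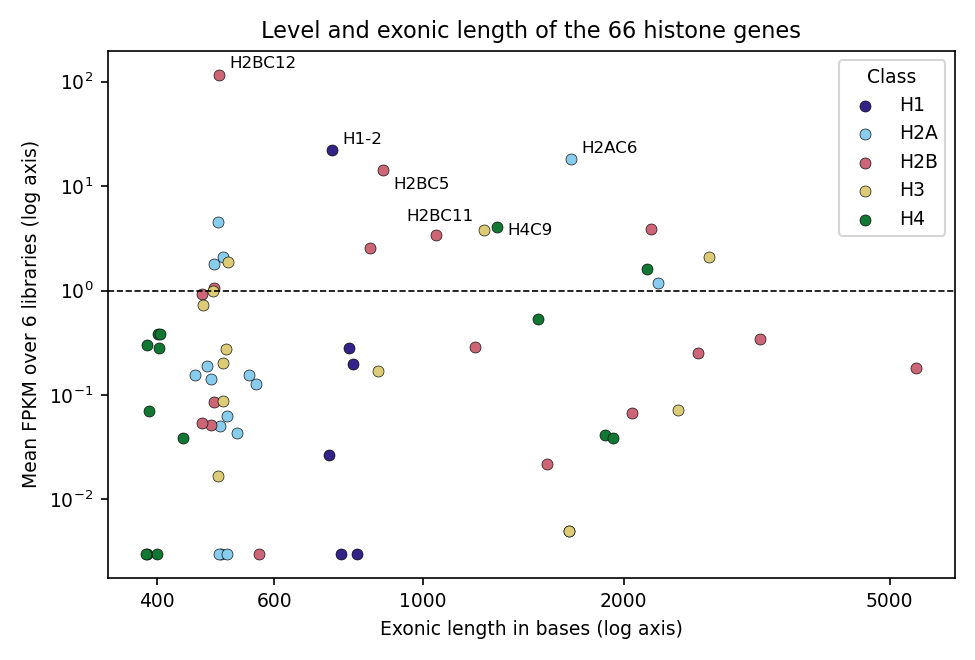
Mean FPKM over 6 libraries against exonic length (both axes log) for the 66 histone genes, coloured by class, with the dashed line at 1 FPKM; the 9 genes with no count are drawn at 0.003. H2BC12, at 116.7 FPKM and 495 bases, is the only gene of 600 bases or less above 10.

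Histone copies resemble each other, so counts may be split between them. How reads that fit several genes were counted is not stated, and the series text gives reads of 50 bases. In GENCODE release 29 transcripts, 74.1% of the 50-base windows of H2BC12 also occur in another gene, chiefly H2BS1 (61.4%), to which the table assigns 2, 0 and 0 counts in control and 0, 0 and 1 in siGSE1 libraries. The value of H2BC12 is uncertain for this reason, by an amount that these shares of windows do not measure. The GENCODE model of H2BC12 is 381 bases of coding sequence, shorter than the 495 bases of the deposited table. For the other called genes the shared windows came to 30.5% for H2BC6, 5.36% for H2BC5, 4.65% for H2BC11, 0.562% for H4C9 and 0% for H1-2. Among the genes not called, they came to 62.3% for H2AC13 and 86.3% for H2AC17. Overlap with another gene's span was found for 15 of the 66 genes, 5 of them tested. The sources used here do not state whether counting used strand, so reads of a histone gene and of an overlapping antisense gene cannot be told apart. H2BC5 and H2BC6 both overlap the antisense gene AL353759.1, which had 21, 27 and 17 counts in control and 17, 13 and 42 in siGSE1 libraries.

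The 47 genes under 1 FPKM were mostly close to the limit of detection. Of these, 43 were not tested, and none of the 43 had more than 11 counts in a library. Together the 47 held between 93 and 169 counts per library.

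Genes that act on histone mRNA and histone protein were taken from lists for reference, with the shares over all genes above (10.9% higher, 9.02% lower) as background. Their changes below are log2 fold changes. The first list joins genes of histone mRNA transcription and 3′ end formation with factors of general cleavage and polyadenylation, such as PAPOLA, PABPN1 and CSTF1. Its counts therefore do not describe histone mRNA alone. Of its 31 genes, all tested, 1 rose, 3 fell and 27 did not pass, with a median log2 fold change of -0.06. SNRPE, an Sm protein of small nuclear ribonucleoproteins, U7 included, fell by 0.37 (edgeR adjusted p = 0.00920). The cleavage stimulation subunit CSTF2 fell by 0.26 (edgeR adjusted p = 0.0112) and the cap-binding subunit NCBP2 by 0.24 (edgeR adjusted p = 0.0115). The cleavage and polyadenylation subunit CPSF4 rose by 0.21 (edgeR adjusted p = 0.0440). Of 13 alternative fits, SNRPE passed in 13, CSTF2 in 12 (not without siGSE1 replicate 2), NCBP2 in 11 (not with TPM scaling or without siGSE1 replicate 3) and CPSF4 in 4. CPSF4 was lost with DESeq2, without the filter and with any library left out, among others, its adjusted p reaching 0.173. SLBP, the stem-loop-binding protein, had 27.8 FPKM in control and 26 in siGSE1 cells and did not pass (edgeR adjusted p = 0.199). NPAT, the coactivator of histone gene transcription, had 1.61 and 1.76 FPKM and did not pass either (edgeR adjusted p = 0.612).

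Of 28 genes of histone mRNA decay, 3 rose, 1 fell and 24 did not pass, with a median log2 fold change of 0.05. The poly(A) polymerase TENT4A rose by 0.37 (edgeR adjusted p = 0.00110) and the decapping enzyme DCP2 by 0.33 (edgeR adjusted p = 0.00888). DCP1A, a decapping cofactor, fell by 0.37 (edgeR adjusted p = 0.00936), so members of one decapping complex moved in opposite directions. The cyclin CCNA2 rose by 0.19 (edgeR adjusted p = 0.0440). Of the 13 alternative fits, TENT4A passed in 13, DCP2 in 11 (not with limma or without siGSE1 replicate 3), DCP1A in 11 (not with limma or without siGSE1 replicate 2) and CCNA2 in 6. CCNA2 was lost with DESeq2 and with any library but control replicate 3 left out, among others, its adjusted p reaching 0.150. Of 30 histone chaperone genes, 4 rose, 2 fell and 24 did not pass, with a median of 0.02. CHAF1A, the large subunit of the replication-coupled chaperone CAF-1, rose by 0.33 (edgeR adjusted p = 0.00488), and UBN1 (0.24) and CABIN1 (0.19), subunits of the HIRA complex, passed as well, with edgeR adjusted p of 0.0216 and 0.0411. NPM1, a nucleolar chaperone, fell by 0.21 (edgeR adjusted p = 0.00961). CHAF1A passed in 13 of the 13 alternative fits, NPM1 in 12 (not without siGSE1 replicate 3), UBN1 in 8 and CABIN1 in 4. UBN1 was lost with limma and without control replicates 1 or 3 or siGSE1 replicates 2 or 3, with adjusted p up to 0.118. CABIN1 was lost with DESeq2, limma, no filter and any library but control replicate 2 left out, among others, with adjusted p up to 0.158.

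The replacement histones are mostly encoded outside the clusters, made throughout the cell cycle and translated from polyadenylated mRNAs. The list used here also names other histone genes outside the clustered set, such as H2AW, H2BU1, H3-4 and H4-16. Its counts, and the genes named from it, therefore do not stand for polyadenylated replacement genes alone. Of 18 genes of this list in the table, 15 were tested, of which 4 rose, 1 fell and 10 did not pass. Their median log2 fold change was 0.13 against 0.39 for the clustered genes. MACROH2A2 went from 13.5 to 21.1 FPKM, with log2 fold change 0.62 (edgeR adjusted p = 1.77e-05). H2AJ went from 16.5 to 23.5 FPKM, with log2 fold change 0.49 (edgeR adjusted p = 3.94e-05). CENPA, the centromeric H3, went from 10.9 to 15.5 FPKM (edgeR adjusted p = 0.00106), and the linker H1-10 fell from 47.1 to 40.6 FPKM (edgeR adjusted p = 0.0214). MACROH2A2, H2AJ and CENPA passed in 13 of the 13 alternative fits and H1-10 in 8, being lost with TPM scaling, with limma and without control replicate 3 or siGSE1 replicates 1 or 2, with adjusted p up to 0.101. Of the abundant genes of this list, H3-3B (78.7 FPKM in both groups), H2AZ1 (107 and 114) and H2AX (54.8 and 60.01) did not pass. In FPKM each of these 3 lay above every clustered gene other than H2BC12.

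Of 40 genes expressed at the start of S phase or needed for DNA replication, 7 rose, 4 fell and 29 did not pass, with a median log2 fold change of 0.03. GMNN, the inhibitor of origin licensing, fell by 0.53 (edgeR adjusted p = 3.42e-04). The origin-firing factors CDC45 and GINS2 rose by 0.41 (edgeR adjusted p = 7.42e-04) and 0.43 (edgeR adjusted p = 0.00229), and the transcription factor E2F1 rose by 0.33 (edgeR adjusted p = 0.00259). These 4 genes passed in 13 of the 13 alternative fits. SLBP, CDK2 and MCM2 stand in more than one of these lists. The share of cells in S phase was not measured, and its part in the histone levels was not tested.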

How the data were processed

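The authors deposited one table with a raw read count and an FPKM value for each gene in each of the 6 libraries. Each FPKM equals the count divided by exonic length and library total, within 0.0051, in 100% of the genes. Tools named per the submitters' processing notes are HISAT2, StringTie 1.3.3b, HTSeq and edgeR with hg38, whereas the series text names STAR and DESeq2, so which aligner made the table, and how multiply mapping reads and strand were treated, is not settled here. The series text also describes the reads both as paired-end and as single reads of 50 bases.

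Counts were fitted with edgeR 4.0.16 in R 4.3.3 (TMM scaling, filterByExpr with a minimum count of 10 and total of 15, quasi-likelihood test on group alone), with Benjamini-Hochberg adjustment over all 15937 genes tested and a threshold of 0.05. The standard error is the log2 fold change over the square root of F. The biological coefficient of variation was estimated at 7.00%, and for genes of few counts the counting error is larger.

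Members and lists were chosen with earlier results of these data known. Named genes are every histone gene with a group mean of at least 1 FPKM or past the threshold, up to 4 passing genes of each context list or else its most abundant, and GSE1; SLBP, NPAT and the abundant replacement histones were named for their role. Sequence matches used GENCODE release 29 transcripts and the RefSeq promoter table. Alternatives were DESeq2 1.42.0, limma 3.58.1 on log2(FPKM + 1), other scalings, no filter, a robust prior, a replicate block and leaving out each library. Applying them to the context lists and to their called genes was added after seeing the data.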

Additional observations from a re-analysis of the deposited data

How the results depend on the processing

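The number of histone genes higher in siGSE1 cells was 6, and it was 5 with DESeq2 (which gave H2BC6 no adjusted p), 7 with TPM scaling, 6 with each of no TMM, no low-count filter, limma and a robust prior, and 4 to 7 with each library left out in turn. The number lower was 0 in every one of these fits. H2BC12, H2BC5 and H2BC11 kept their calls in all 13 alternatives. The median log2 fold change of the tested genes was 0.39, 0.21 with limma on log2(FPKM + 1), where the pseudocount shrinks low genes, and 0.25 to 0.44 with a library left out. With a library left out, the log2 fold change ranged from -0.15 to 0.43 for H2AC13, -0.81 to 0.14 for H2AC17, -0.087 to 0.43 for H2AC20 and -0.043 to 0.35 for H3C10, and the cause was not tested. With the replicate block, 6 histone genes were higher with a median of 0.38. In the context lists the calls of CPSF4, CCNA2 and CABIN1 and of the S phase genes E2F2 and CDC6 were lost. The replicate numbers do not pair the libraries by the deviations from group means, whose correlations for equal numbers were 0.02, -0.02 and 0.00. Over all genes, 1730 were higher and 1437 lower (54.6% of changed genes higher), against 2544 and 929 (73.3%) with TPM scaling, which moved the median log2 fold change of all genes by 0.06. Without siGSE1 replicate 2 the counts were 1158 and 897, and without siGSE1 replicate 3, 1049 and 814. Over all alternatives, S phase genes higher numbered 4 to 10 and lower 1 to 5, chaperones 1 to 7 and 0 to 2, decay genes 1 to 4 and 0 to 1, processing genes 0 to 4 and 2 to 4, and replacement histones 3 to 6 and 0 to 1. Of the 46 histone genes left out by the filter, 9 had 0 counts in every library, and the other 37 were fitted without it, where 0 passed (lowest edgeR adjusted p = 0.138).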
